A study of Mus musculus with 6 samples.

Results

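The heat shock and chaperone genes described here are Hsf1, Hsph1, Bag3, Hspa4, Hspa8, Hspa9, Hsp90aa1, Hsp90ab1, Hspd1 and Dnajb1, 10 genes fixed by name. The set was chosen with earlier results of these data known. A gene was measured when an array row named it and no other gene, and its brightest such row over the 6 arrays was used. This gave 8 of the 10 genes, among 30697 genes measured in all. Hsf1, the transcription factor of the heat shock response, and Hsp90ab1, the constitutive HSP90 gene, are not analysed here. The cells were mouse CD4 T cells, sorted as naive cells (CD25 negative, CD62L positive, CD44 negative), stimulated through CD3 and CD28, and driven toward the TH17 fate, in which helper T cells secrete IL-17. All cultures ran for 3 days in IMDM with 10% FBS, 1.25 ng/ml TGF-beta and 20 ng/ml each of IL-6 and IL-23, and IFN-gamma, IL-4 and IL-12 were blocked with antibodies (10 ug/ml). One group had glutamine in the medium (3 arrays) and the other was labelled as glutamine-free (3 arrays). The comparison asks what the glutamine-free condition does to transcripts. The labels call the arrays biological replicates without tying them to individual animals. The p-values therefore reflect only array-to-array spread, part of which may be technical. The sources used here give no strain, sex or age.

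Chaperones bind unfolded proteins and help them fold. In the cytosol, a J-domain protein such as DNAJB1 hands a client to an HSP70 such as HSPA8, a nucleotide exchange factor (HSPH1, HSPA4, BAG3) makes the HSP70 release it, and some clients pass on to HSP90. HSPA9 and HSPD1 do the same kind of work inside mitochondria, so the set is not purely cytosolic. Heat or misfolded protein activates HSF1, which binds heat shock elements, inverted repeats of GAA, upstream of many of these genes. Activated T cells make protein fast and are known to raise several chaperones.

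Heat shock elements were searched for in RefSeq promoter windows of GRCm38.p6, 250 bases before to 50 after an annotated start. The search used the 2-unit repeats GAANNTTC and TTCNNGAA, each its own reverse complement. It also used their 3-unit forms, in which a further inverted unit follows after NN. The 3-unit forms are reverse complements of each other, so both strands were covered, and each contains both 2-unit repeats. Windows were present for 5 of the 8 measured genes: Hsph1, Bag3, Hspa4, Hspd1 and Dnajb1. A 2-unit repeat stood in 3 of the 5 (Hsph1, Bag3, Hspd1), and a 3-unit repeat in 2 (Hsph1, Hspd1). Of all 27025 genes with a window, 17.0% held a 2-unit repeat and 0.662% a 3-unit repeat; of the 32851 windows, some genes having several, 15.1% and 0.603% did. The following stretches are shown because they hold these matches, which are in capitals and are read 5′ to 3′ on the strand of the gene.
Hspd1, chr1:55087933-55088132, minus strand: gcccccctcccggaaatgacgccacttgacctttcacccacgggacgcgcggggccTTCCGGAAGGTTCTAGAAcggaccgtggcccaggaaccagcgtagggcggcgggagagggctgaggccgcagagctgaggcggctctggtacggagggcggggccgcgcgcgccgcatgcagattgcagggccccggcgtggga
Hsph1, chr5:149636337-149636436, minus strand, before the start: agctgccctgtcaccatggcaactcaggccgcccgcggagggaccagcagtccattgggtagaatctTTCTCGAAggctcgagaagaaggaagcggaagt
Hsph1, chr5:149636287-149636312, minus strand, after the start: aaatgctgcagaTTCTGGAAAGTTCt
Bag3, chr7:128523603-128523632, plus strand, after the start: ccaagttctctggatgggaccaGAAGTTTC
The Hspd1 stretch joins 4 repeat units in 1 run, from position -144 to -127 relative to the start at 55087932. It lies between this start and the start of Hspe1, which runs the other way 216 bases off, so both genes share the run. Another annotated start of Hspd1, at 55088243, has no match in its window. In Hsph1, 1 match lay at -33 to -26 relative to the start at 149636336, and the 3-unit match covered positions 37 to 49. The match in Bag3 covered positions 43 to 50, and the windows of Hspa4 and Dnajb1 held none of these letters in this order. A match is a description of the sequence and not evidence of binding. The search allowed no mismatch and did not reach beyond these windows, so a missing match does not show that an element is absent.

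Of the 8 measured genes, all had a lower mean without glutamine and 5 fell past the threshold (limma, adjusted p under 0.05 over all genes): Bag3, Hsph1, Hspa4, Hsp90aa1 and Hspd1. None rose. At an unadjusted p under 0.05, 7 were lower and 0 higher, against 17.6% and 18.5% of all genes. Each change is the difference of group means on the deposited log2 scale, negative where glutamine-free cells were lower. Changes are not turned into folds, because the values run past 16 log2, more than a 16-bit scanner records, and the scale may have been shifted or stretched. The median change of the 8 genes was -0.45, against 0.060 over all genes and -0.059 over the genes above the median level. Among all genes, 9.30% were called higher and 13.0% lower, a share that dim genes pull down: in a fit on the genes above the median level alone it was 26.6%, with 6 of the 8 genes called. With arrays centred on their medians, 20.0% of all genes and 7 of these 8 were called lower. The groups did not overlap in 6 of the 8 genes, all lower without glutamine, against 18.8% of all genes. The shares of 17.6%, 18.8% and 20.0% include dim genes, whereas all 8 genes stood above the array median on all arrays. The calls rested on few arrays: leaving out with glutamine replicate 1 or 2, or without glutamine replicate 2 or 3, left 3 of the 8 genes called. In bulk RNA, fewer cells with a transcript and less of it per cell cannot be told apart.

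**Figure D1:**
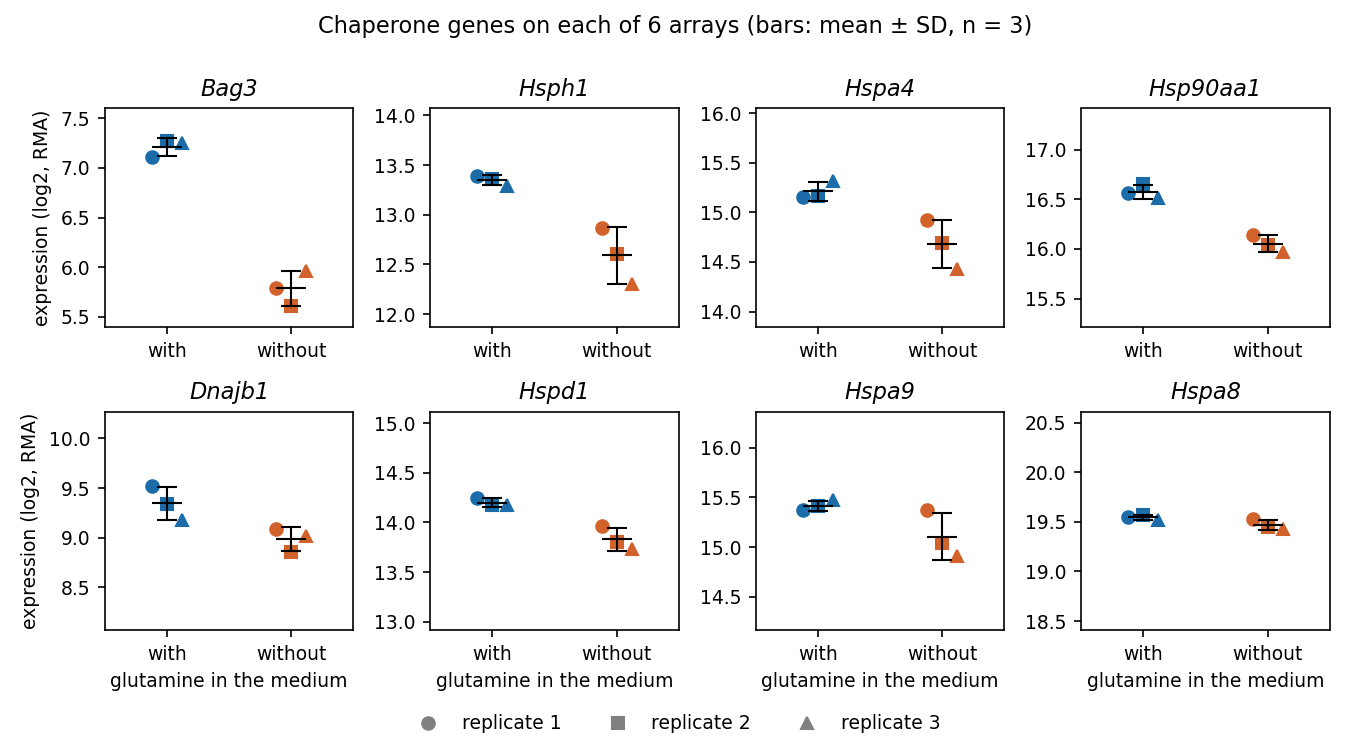
Expression of the 8 measured genes (log2, RMA) on each array, with glutamine (blue) and without (orange); marker shapes give the replicate number in the labels and bars the mean ± SD of 3 arrays. Every panel spans the same range of log2 units, and the groups are apart in all panels but those of Hspa9 and Hspa8.

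The nucleotide exchange factors Bag3, Hsph1 and Hspa4 all fell. BAG3 couples HSP70 to small heat shock proteins and to autophagy of damaged protein. Bag3 read 7.11, 7.27 and 7.25 log2 on the arrays with glutamine and 5.79, 5.61 and 5.96 on those without. The groups were 1.15 log2 apart at their nearest arrays, several times the spread inside either group. Its mean fell from 7.21 ± 0.09 to 5.79 ± 0.18 (SD, n = 3), a change of -1.42 with a standard error of 0.11 (limma, adjusted p = 0.000459). Only 1.31% of all genes had a larger fall, and the call held in all 15 alternative fits, with adjusted p from 0.000222 to 0.0135.

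Hsph1 encodes HSP110, the main exchange factor of cytosolic HSP70 in stressed cells. It read 13.39, 13.36 and 13.29 log2 with glutamine and 12.87, 12.61 and 12.30 without. Arrays with glutamine lay close together and those without were spread wider, but all 3 of the latter were lower. The mean fell by 0.76 with a standard error of 0.14, from 13.35 ± 0.05 to 12.59 ± 0.29 (limma, adjusted p = 0.0123). The unmoderated statistic was the only one of 15 alternative fits in which it missed the threshold (adjusted p = 0.0655).

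Hspa4 encodes APG-2, another HSP110-type exchange factor that works with HSPA8 in pulling apart aggregates. It read 15.15, 15.16 and 15.32 log2 with glutamine and 14.92, 14.69 and 14.43 without. The nearest arrays of the groups were 0.23 log2 apart, less than the SD of the group without glutamine (0.25). The mean fell by 0.53 with a standard error of 0.13 (limma, adjusted p = 0.0316). Leaving out any array except without glutamine replicate 1 ended the call, with adjusted p from 0.0624 to 0.0913, as did the unmoderated statistic (0.103), so the change of Hspa4 is less firm than that of Bag3 or Hsph1.

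Dnajb1 encodes the heat-inducible J-domain partner of HSP70. It read 9.52, 9.34 and 9.18 log2 with glutamine and 9.09, 8.86 and 9.02 without. The groups did not overlap, but they came within 0.091 log2 of each other. The change of -0.36 (standard error 0.11) missed the threshold (limma, adjusted p = 0.0614), with a 95% interval of -0.62 to -0.095. Quantile normalization (adjusted p = 0.0388), centring the arrays on their medians (0.0220), testing genes above the median level (0.0450), array weights (0.0358) and leaving out with glutamine replicate 3 (0.0374) each brought it past the threshold.

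HSPA8 is the constitutive HSP70 of the cytosol, and the rows that name its gene alone cannot be tied to the gene itself. Of the 6 rows that name Hspa8, 4 name it alone, and the identifiers of all 4 carry the code of a chromosome other than that of Hspa8 in RefSeq. Over 29041 rows, this code matched the chromosome of the named gene in 99.7%. Processed copies of Hspa8 in the genome are nearly identical to its transcript, so these rows may read the gene, its copies or both. The row used read 19.55, 19.57 and 19.52 log2 with glutamine and 19.53, 19.45 and 19.43 without. These values lay 0.052 to 0.14 log2 under the highest value on their arrays, where a change may be compressed. The change was -0.078 with a 95% interval of -0.23 to 0.075 (limma, adjusted p = 0.414), and -0.23 once arrays were centred (adjusted p = 0.0570). The other 3 rows that name Hspa8 alone changed by -0.067 to -0.081. The row with the chromosome code of Hspa8 names the snoRNAs Snord14c, Snord14d and Snord14e as well, which lie in introns of the gene. It read 16.02, 16.02 and 16.03 log2 with glutamine and 15.99, 15.95 and 15.89 without, a change of -0.081. Its groups did not overlap, with a gap of 0.035 log2. Nor did those of the row that names Hspa8 with Gm15459, with a gap of 0.0091. All 6 rows were thus lower without glutamine by less than 0.1 log2.

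HSP90 finishes the folding of kinases, steroid receptors and other signalling proteins, and Hsp90aa1 is its inducible gene. It read 16.56, 16.65 and 16.51 log2 with glutamine and 16.14, 16.04 and 15.97 without, with both groups tight and 0.37 log2 apart at their nearest. The mean fell by 0.52 with a standard error of 0.077, from 16.58 ± 0.07 to 16.05 ± 0.08 (limma, adjusted p = 0.00500). The call held in all 15 alternative fits (adjusted p 0.000581 to 0.0249). After quantile normalization the change was larger, at -0.88. As deposited, the 428 genes above 16 log2 had a median change of 0.31, so Hsp90aa1 moved against most genes of its level. Another 2 rows name Hsp90aa1 together with a pseudogene, Gm5844 or Gm12346, and their means differed by -0.79 and -0.75. Neither of these rows had groups that overlap.

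Inside mitochondria, HSPD1 (HSP60) forms the folding chamber and HSPE1 (HSP10) its lid. Hspd1 read 14.25, 14.17 and 14.17 log2 with glutamine and 13.96, 13.80 and 13.73 without. All arrays without glutamine were lower, by at least 0.21 log2. The mean fell by 0.37 with a standard error of 0.082 (limma, adjusted p = 0.0220). Leaving out with glutamine replicate 1 (adjusted p = 0.0678) or 2 (0.0603), or without glutamine replicate 2 (0.0764) or 3 (0.0664), ended the call, as did the unmoderated statistic (0.0545). Hspe1, which shares the 4-unit run of repeats printed above, read 12.36, 12.19 and 12.18 log2 with glutamine and 12.43, 12.37 and 12.23 without, with overlapping groups, a difference of 0.10 (limma, adjusted p = 0.442). The change of Hspd1 minus that of Hspe1 was -0.47, with SDs of 0.059 and 0.052 among arrays with and without glutamine. The arrays did not overlap in this difference, as they did not in Hspd1 alone. The exact two-sided permutation p was 0.10, the smallest that 3 arrays against 3 allow. Hspe1 and this comparison were not planned and were picked with the results known, so the p is a description only.

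HSPA9 (mortalin) pulls proteins into the mitochondrial matrix and folds them there. Hspa9 read 15.37, 15.41 and 15.47 log2 with glutamine and 15.37, 15.04 and 14.91 without. Replicate 1 without glutamine lay inside the range of the other group, and the other two arrays lay below it. The change of -0.31 (standard error 0.12) missed the threshold (limma, adjusted p = 0.127). Without that array it was -0.44 (adjusted p = 0.0220), after quantile normalization -0.60 (0.0177) and after centring -0.46 (0.0451).

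**Figure D2:**
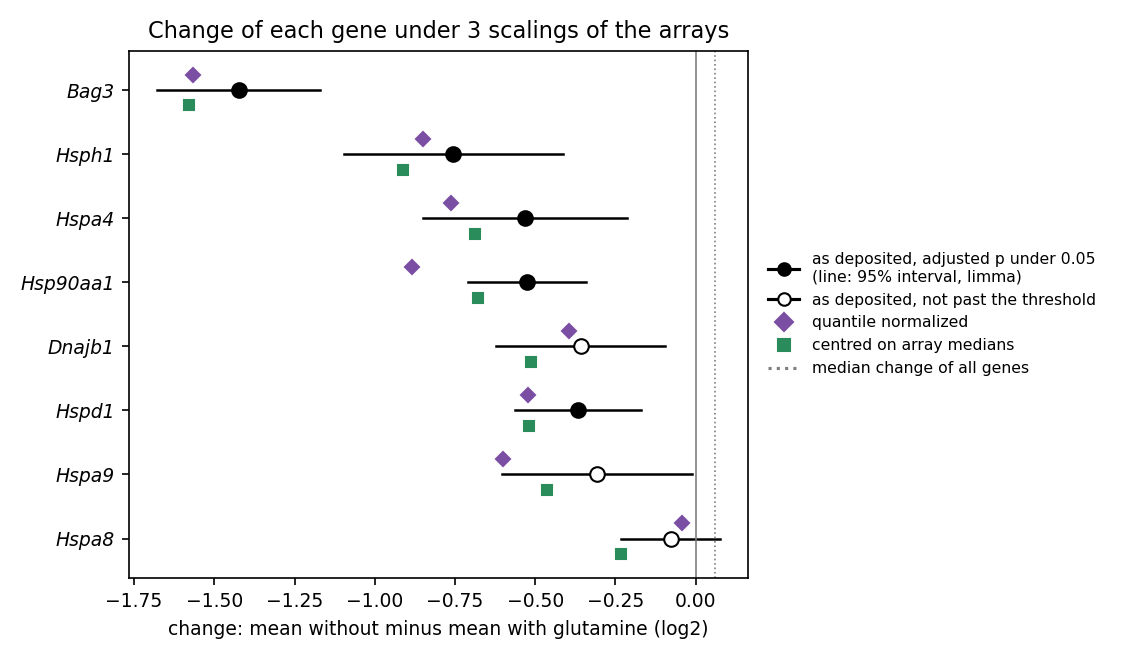
Change of each of the 8 genes in log2 (horizontal axis) as deposited, with its 95% interval from limma, after quantile normalization and after centring the arrays. Every estimate lies below 0 under all 3 scalings; Hsp90aa1 and Hspa9 move furthest with quantile normalization, to -0.88 and -0.60.

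The 3 scalings differ because the arrays do. The array medians were 4.18 to 4.21 log2 with glutamine and 4.33 to 4.38 without, and 695 to 887 rows per array stood above 16 log2. Centring moved the median change of all genes from 0.060 to -0.095, and quantile normalization moved it to -0.048. The background also varied with the level of a gene. Genes up to 6 log2 were called lower in 3.06% of 18767 cases, those between 6 and 8, the band of Bag3, in 25.6%, and those between 8 and 10, the band of Dnajb1, in 32.1%. The share was 29.3% in the band of Hsph1 (12 to 14 log2), 24.7% in that of Hspa4, Hspa9 and Hspd1 (14 to 16), and 12.4% above 16. The band medians were between -0.16 and -0.035 from 6 to 16 log2. Each of these 8 genes thus had a change below the median of its band.

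**Figure D3:**
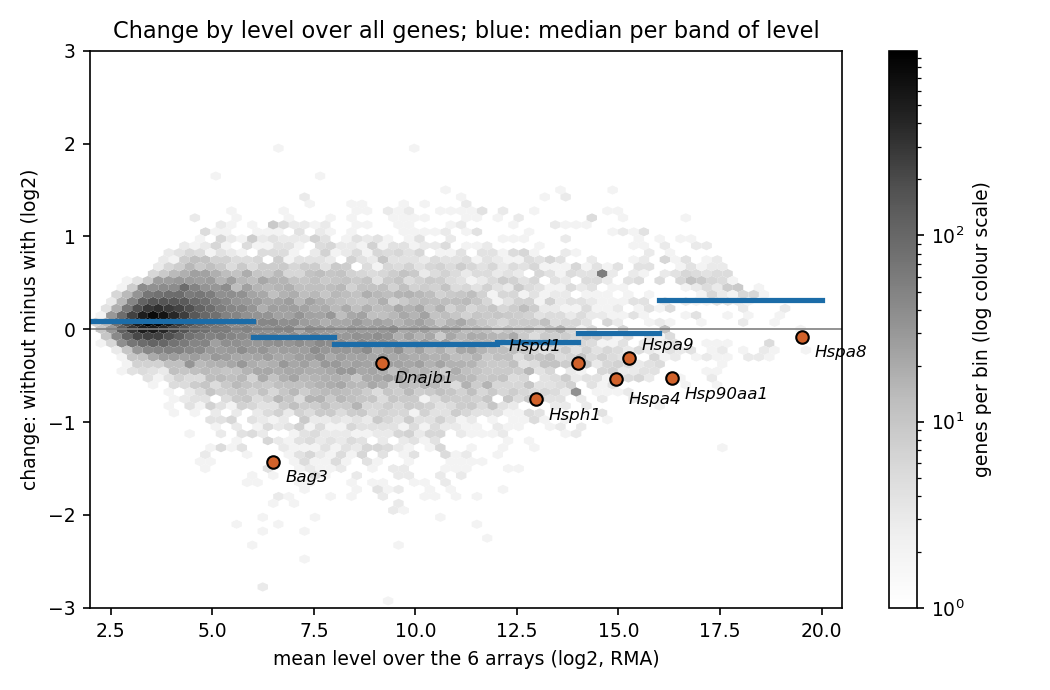
Change in log2 (vertical axis) against the mean level over the 6 arrays for all genes, shaded by the number of genes per bin on a log colour scale; blue lines are band medians, and changes beyond 3 log2 are not drawn. The 8 genes (orange) lie below the line of their band, with Bag3 lowest at -1.42 and Hspa8 nearest to 0 at -0.078.

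Beyond these genes, 9 lists of the chaperone system held 96 other genes, of which 89 were measured. Of these, 30 fell (33.7%, against 13.0% of all genes), 0 rose and 59 did not pass (limma). In the fit on genes above the median level, 31 of the 71 that entered it were lower (43.7%, against 26.6%). With centred arrays, 43 of the 89 were lower, against 20.0% of all genes. That share, like those at an unadjusted p, is over all genes, dim ones included. At an unadjusted p under 0.05, 41 were lower (17.6% of all genes were) and 2, Cdc37l1 and Hspa12a, were higher (18.5% of all genes were); both are named after their values were seen. The median change of the 89 was -0.21, against 0.060 over all genes and -0.059 over the genes above the median level. The lists overlap, and a gene in several counts in each but once in the total. The counts per list below stand beside the 13.0% of all genes called lower. In the separate fit on genes above the median level that share was 26.6%, and the single lists were not counted in that fit. Genes named below are the largest falls past the threshold in each list, except Hspe1, Bag1, Cct4 and Chordc1, which were chosen after their values were seen.

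Of 6 measured genes for heat shock factors and their binders, 1 fell (16.7%, against 13.0% of all genes). Hsf2, a factor that pairs with HSF1, read 10.34, 10.22 and 10.33 log2 with glutamine and 9.60, 9.73 and 9.57 without, a change of -0.67 (limma, adjusted p = 0.00209). Only 3 of the 6 stood above the array median on all arrays, and the list median was 0.039. Among HSP70 and HSP110 genes other than those above, 3 of 7 fell. Hspa14, a ribosome-bound HSP70, fell by 0.57 (limma, adjusted p = 0.0185). That call was lost on leaving out with glutamine replicate 1 (0.0535) or 2 (0.0573) or without glutamine replicate 2 (0.0675), and with the unmoderated statistic (0.0745). Hspa1a, the classical heat-inducible HSP70 gene, had a mean of 3.78 ± 0.08 with glutamine and 3.23 ± 0.04 without (limma, adjusted p = 0.00321). All 6 of its values lay below the array medians, so no clear signal of this transcript was present in either group; without it, 2 of 6 genes of this list fell. Its near-identical copy Hspa1b is not analysed here.

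Of 14 other J-domain genes, 7 fell, with a median change of -0.21. Dnajc21, a factor of ribosome maturation, fell by 0.64 (limma, adjusted p = 0.00747), and Dnajc5, a vesicle protein, fell by 0.48 (adjusted p = 0.00350). Among the exchange and release factors other than those above, 3 of 7 fell. Bag2, which blocks the ubiquitin ligase that marks HSP70 clients, fell from 5.86 ± 0.07 to 5.10 ± 0.11 log2. Hspa4l, the third HSP110-type gene, fell by 0.55 (limma, adjusted p = 0.010). Bag1 stood at a change of 0.011.

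HSP90 co-chaperones gave 8 falls among 17 measured, and 16 of the 17 had a lower mean without glutamine. Ptges3, which encodes p23 and holds HSP90 in its closed form, read 13.71, 13.69 and 13.45 log2 with glutamine and 12.99, 12.67 and 12.54 without. Its change was -0.88 (limma, adjusted p = 0.00598). Fkbp4, an immunophilin of the steroid receptor complex, fell by 0.81 (adjusted p = 0.00262). Stip1 encodes HOP, the adaptor that passes clients from HSP70 to HSP90. It fell from 15.08 ± 0.07 to 14.43 ± 0.04 log2 (limma, adjusted p = 0.00155). The list median with Hsp90aa1 was -0.42.

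The chaperonin CCT folds actin and tubulin, and prefoldin delivers them to it. Of 14 measured genes 4 fell (28.6%), with a median change of -0.14. That share is above the 13.0% of all genes and near the 26.6% called in the separate fit on genes above the median level. Cct7 fell by 0.75 (limma, adjusted p = 0.0172), a call lost on leaving out with glutamine replicate 2 (0.0591) or without glutamine replicate 2 (0.0612) or 3 (0.0563), and with the unmoderated statistic (0.0790). Cct3 fell by 0.73 (adjusted p = 0.00873, and 0.0522 with the unmoderated statistic), while Cct4, of the same ring, stood at 0.059 (adjusted p = 0.659). Small heat shock proteins hold unfolded clients without ATP. Of 10 measured genes 1 fell, Hspb6 with a change of -1.11, from 7.12 ± 0.15 to 6.01 ± 0.27 log2 (limma, adjusted p = 0.00384), and 4 stood above the array median on all arrays. The list median was 0.081.

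Mitochondrial chaperones and proteases other than Hspd1 and Hspa9 fell in 4 of 14 cases (28.6%). That share is above the 13.0% of all genes and near the 26.6% called in the separate fit on genes above the median level. The protease gene Afg3l2 fell from 11.01 ± 0.22 to 9.83 ± 0.13 log2 (-1.17, limma, adjusted p = 0.00177). Clpx, the unfoldase of the matrix protease, fell by 0.62 (adjusted p = 0.00123). Of 11 other genes known as targets of HSF1, 6 fell and 5 did not pass, with a median change of -0.55; without the dim Hspa1a, 5 of 10 fell. The largest falls among these targets were those of Fkbp4 and Stip1, given above. With the genes described first counted in, 10 of 17 measured targets fell (58.8%). Among the targets that did not pass were Hspe1, given above, and Chordc1, an HSP90 co-chaperone, at -0.060 (limma, adjusted p = 0.768). Of the 26 other chaperone genes that fell and had a promoter window, 6 held a 2-unit repeat (23.1%), and so did 10 of the 50 that did not pass (20.0%), against 17.0% of all genes with a window. A 3-unit repeat stood in 1 and 2 of them.

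**Figure D4:**
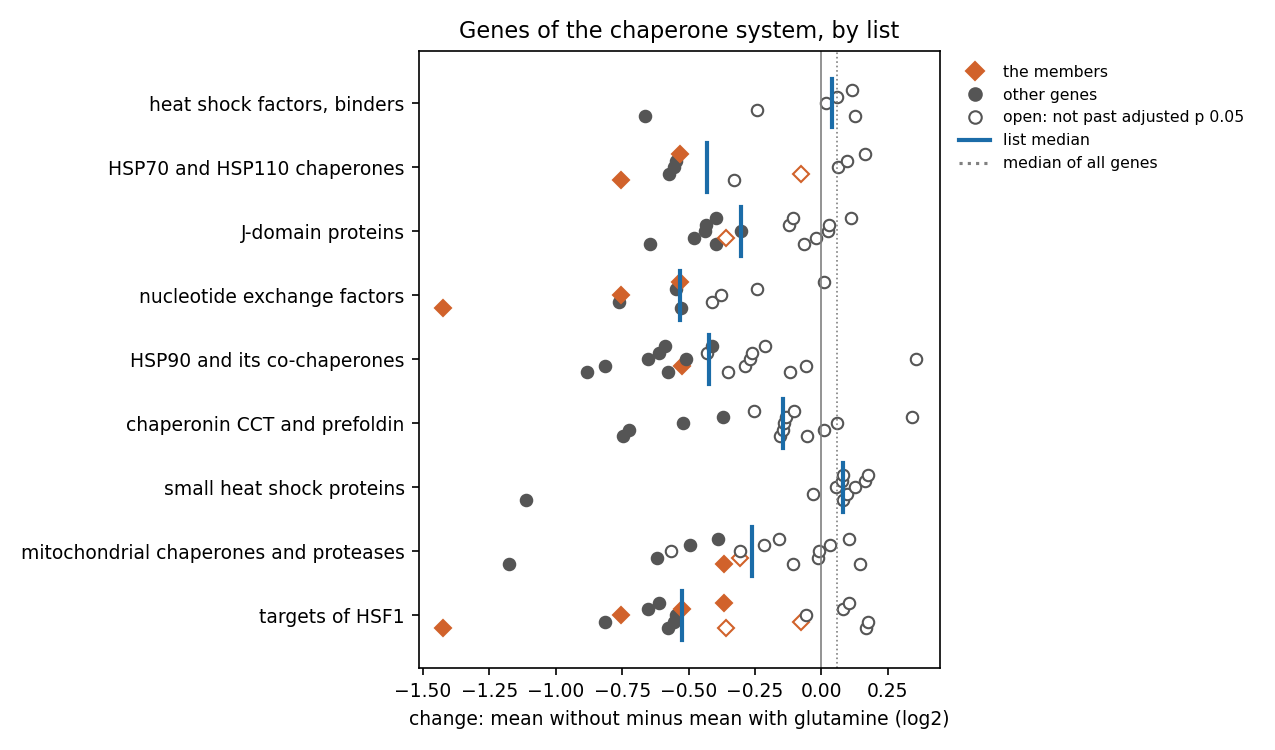
Change in log2 (horizontal axis) of every measured gene in the 9 lists; diamonds are the genes described first, circles the others, open symbols missed the threshold, blue bars are list medians, and a gene in several lists is drawn in each. The filled symbols all lie left of 0, and the medians of the heat shock factors and small heat shock proteins lie near the median of all genes.

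The arrays carried the signal of CD4 T cells: all 8 measured markers of the labelled cells, Cd3d, Cd3e, Cd3g, Cd4, Cd28, Cd5, Zap70 and Cd2, stood above the array median on all arrays. Of 23 measured markers of 6 other cell types, 7 did: Cd8b1, Ebf1, Fcer1g, Cd68, Siglech, Eomes and Alas2. Lck is not analysed here, and Cd79a, Ms4a1, Cd14, Csf1r and Ncr1 stood below 4.5 log2 in both groups. Beside the falls described above, Ebf1 changed by -2.14, Lyz2 by -1.66, Cd8b1 by -0.71 and Cd68 by 1.58 (limma, adjusted p at most 0.0117), and 3 CD4 T cell markers rose. Their part in the changes of the chaperone genes was not tested.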

How the data were processed

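Total RNA of 6 cultures was measured on Affymetrix GeneChip arrays, labelled with the WT PLUS kit per the labels' protocols. The authors deposited log2 expression values per array row, per the submitters' processing notes, which name RMA and Transcriptome Analysis Console 4.0. Options, annotation and genome build: not given in the sources used here. Gene names came from GEO's platform table, and older symbols were replaced through RefSeq (GRCm38.p6). Of 65956 rows, 31256 named 1 gene, 1494 several and 33206 are unnamed here. The brightest row per symbol left 30697 genes, dim ones included; no 2 arrays were identical. Each gene was tested without against with glutamine in limma 3.58.1 (lmFit and eBayes, two-sided, R 4.3.3), with no covariate and Benjamini-Hochberg adjustment over all genes at 0.05. The fit was tested on simulated data. Alternatives were quantile normalization, centring, genes above the median level, the mean over rows, every row, trend and robust eBayes, an unmoderated statistic, array weights, adjusted p under 0.01, a block for replicate number, and each array left out in turn. Named genes are all members, and in each list up to 2 non-members with the largest rise and 2 with the largest fall past the threshold. Exceptions are given above. Members and lists were chosen with earlier results of these data known. The number of arrays limits the precision. Figures used matplotlib 3.10.9 in Python 3.11.15.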

Additional observations from a re-analysis of the deposited data

How the results depend on the processing

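All 8 chaperone genes kept their direction in all alternatives run. In several of these, such as the unmoderated statistic and the replicate block, the estimate is the same by design, so direction could not change. Of 120 alternative values for the 8 genes, 99 kept their side of the threshold, 13 lost a call and 8 gained one. At adjusted p under 0.01, 2 of the 8 were called lower, 13 of the other chaperone genes were lower, and 801 genes in all were higher and 2143 lower. With the unmoderated statistic 2 of the 8 were lower, 16 other chaperone genes were lower and 1 was higher, and 1415 genes in all were higher and 2418 lower. Over all genes, 1453 were higher after quantile normalization, 1215 higher and 6127 lower after centring, and 6773 rows were higher when every row was tested. Rises made up 41.7% of all calls on the deposited values, 16.6% with centred arrays, 21.7% with quantile normalization and 61.9% of calls over every row. Leaving out each array gave 3 to 6 of the 8 genes lower, 20 to 31 other chaperone genes lower and 0 to 1 higher, and 1394 to 2489 genes in all higher and 2666 to 4012 lower. Without with glutamine replicate 2, or without glutamine replicate 2, 20 other chaperone genes were lower. The cause of these differences was not tested, except that leaving out an array leaves fewer samples. Whether the replicate numbers pair the arrays is not stated by the labels. Deviations of same-numbered arrays correlated at 0.066, -0.23 and 0.28 over genes, and those of differently numbered arrays at -0.33 to 0.30. Deviations from a mean of 3 arrays constrain each other, so these values cannot decide it. With the replicate number as a block, 4 of the 8 genes were called lower, Hspa4 losing its call (adjusted p = 0.0657), and 1 other chaperone gene was higher. Hspa8 lay near the top of the arrays; whether changes are compressed there was not tested.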

Other observations

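Bag3, the gene with the largest change of the 8, was compared with all others over the 6 arrays by the root mean square distance between values centred on the mean of each gene. The nearest were Nsl1 (0.072 log2), Cenpa (0.073) and Kif15 (0.085). This distance rests largely on the size of the change between groups, which was -1.35 in Nsl1 and -1.31 in Cenpa. Whether these genes are regulated together with Bag3 was not tested. Nsl1 read 9.20, 9.31 and 9.44 log2 with glutamine and 7.98, 7.86 and 8.07 without. Cenpa read 9.19, 9.23 and 9.32 with glutamine and 7.99, 7.74 and 8.09 without. Kif15 changed by -1.48 (limma, adjusted p = 0.000240).

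Among the arrays without glutamine, replicate 1 held the highest value of 7 of the 8 chaperone genes and replicate 3 the highest of the other, Bag3. Over all genes, replicate 1 was the highest of the 3 in 37.9%, and among genes above the median level in 47.5%. Against the mean with glutamine, the median deviation of the 8 genes was -0.27 on replicate 1, -0.51 on replicate 2 and -0.55 on replicate 3. The SD without glutamine was larger than that with it in 7 of the 8 genes, Dnajb1 being the exception, against 49.1% of all genes and 43.6% of those above the median level. Neither count was tested, since the genes share the same arrays.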
